A study of Mus musculus with 12 samples.

Results

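The matrix genes described here are 10 genes of the extracellular scaffold of the lung, read by 19 of the 45101 probe sets on the array. They are the fibrillar collagens Col1a1, Col1a2, Col3a1 and Col5a2, the basement membrane collagens Col4a1 and Col4a2, elastin (Eln) and the cross-linking enzyme lysyl oxidase (Lox), and the matrix glycoproteins fibronectin (Fn1) and Sparc. They follow from a list of probe set numbers for each gene, and the rule behind that list names genes and uses no measured value. Each gene had 2 probe sets except Col4a2, which had 1. The names came with that list, since no table used here pairs probe sets with genes. The number given for the second Col1a1 probe set stood in the table with another suffix than in the list (1455494_AT), and it was matched by its number.

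Collagens are built from chains wound in threes. Type I collagen joins chains made by Col1a1 and Col1a2 and is the main fibre-forming collagen of connective tissue, with types III and V in the same fibrils. Type IV collagen, from Col4a1 and Col4a2, forms the sheet on which epithelium and endothelium sit. Elastin gives the lung its recoil, and lysyl oxidase links elastin and fibrillar collagen into insoluble fibres. Fibronectin binds cells and collagen, and Sparc is a secreted glycoprotein that binds collagen.

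Expression was measured on 12 arrays, with 4 in each of 3 groups. Non-transgenic lung came from FVB mice, an inbred strain, with no transgene. Adjacent normal lung and lung adenocarcinoma came from FVB mice carrying wild-type human cyclin E under the human surfactant protein C promoter, which is active in alveolar type II cells of the lung epithelium. All samples carry the sex label m, all mice were aged 7 to 11 months, and no other allele or agent is named. Normal lung and tumor were told apart at dissection by gross pathology, so each sample was a piece of whole tissue. The study's methods also describe the adjacent lung as histopathologically normal. The labelled tissue was not checked against cell type markers, since those genes were not analysed here, and the other matrix genes were not analysed here either.

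Values were on the log2 scale, already normalized between arrays, so a difference of 1 is a doubling of signal. Levels of different probe sets were not compared with each other. Means are given with the SD over 4 arrays. A difference was called when its adjusted p was under 0.05 in limma, fitted on all 23538 probe sets above the table median of 4.18 in at least 4 arrays, among which all 19 members stood. Arrays limited precision by their number.

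Among the arrays, 2 stood apart. Over the probe sets tested, tumor 2 lay at a mean Euclidean distance of 153.9 from the other tumors, against 96.7 to 102.9 for tumors 1, 3 and 4. Adjacent lung 3 lay at 104.7 from the other adjacent lungs, against 66.2 to 69.8 for the rest, and the non-transgenic lungs lay at 54.4 to 63.7. The signal at the 3′ end minus that at the 5′ end of the Gapdh control ran from 0.09 to 0.23 among non-transgenic lungs, from 0.11 to 0.33 among adjacent lungs and from -0.02 to 0.33 among tumors. For the beta-actin control it ran from 0.60 to 0.75, from 0.68 to 0.92 and from 0.62 to 0.97. By beta-actin, tumors 2, 3 and 4 (0.90, 0.95 and 0.97) and adjacent lungs 1, 3 and 4 (0.77, 0.92 and 0.82) lay above every non-transgenic lung, and tumor 1 and adjacent lung 2 lay among them. The part of RNA quality in the results was not tested.

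The matrix genes did not move as a block. In tumors, Sparc, Lox and Eln had less signal than in adjacent normal lung and 1 probe set each of Col1a1 and Col1a2 had more, while Col3a1, Col5a2, both basement membrane collagens and Fn1 had no call. Of the 19 probe sets, 8 (42.1%) were called between tumor and adjacent lung, 2 higher and 6 lower, against 28.7% of all probe sets tested, of which 13.2% were higher and 15.6% lower. The median log2 difference over the 19 was -0.19, against 0.07 over all probe sets tested. Between tumor and non-transgenic lung 4 of 19 (21.1%) were called, 2 higher and 2 lower, against a background of 32.5% called, 15.6% higher and 16.9% lower. The median was 0.27 over the 19 and 0.07 over all. Between adjacent and non-transgenic lung none was called by limma, and none of the 23538 (0%) was called either. In whole tissue, fewer cells of a type and less RNA per cell cannot be told apart.

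By class, tumors differed from adjacent lung in 2 of 8 fibrillar probe sets, both higher, in 0 of 3 of the basement membrane, in 4 of 4 of Eln and Lox, all lower, and in 2 of 4 of the glycoproteins, both of Sparc and both lower. Against non-transgenic lung the counts were 2 of 8 higher, 0 of 3, 0 of 4 and 2 of 4 lower. Beside the shares of all probe sets called (28.7% and 32.5%), the fibrillar share of 25% in both comparisons lay near the background, and with 3 to 8 probe sets a class these counts are a description. Both comparisons use the same 4 tumors, so their counts are not separate evidence. Over the 3 groups at once, 7 of 19 passed limma's moderated F-test, against 28.6% of all probe sets tested. Tumor 2 bore on these counts. Without it 9 of 19 were called against adjacent lung, with a background of 45%, and 10 of 19 against non-transgenic lung, with a background of 46.8%. Without both tumor 2 and adjacent lung 3 these counts were 9, against 47.6%, and 12, against 52.3%. Against adjacent lung the share of members called rose little, from 42.1% to 47.4% in both fits, and the background came near that share. Against non-transgenic lung the members rose from 21.1% to 52.6% and 63.2%, and the background rose too. The 8 transgenic samples came from 4 mice by the study's design text, and no pairing was used in these tests. Blocking on the replicate number, in case tumor and adjacent lung of a number share a mouse, left 4 of 19 called between those tissues (Lox and Sparc), against 13.9%. With only the 8 arrays compared, or by an unequal-variance test, Sparc alone was called against adjacent lung, with backgrounds of 18.4% and 2.51%.

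**Figure D1:**
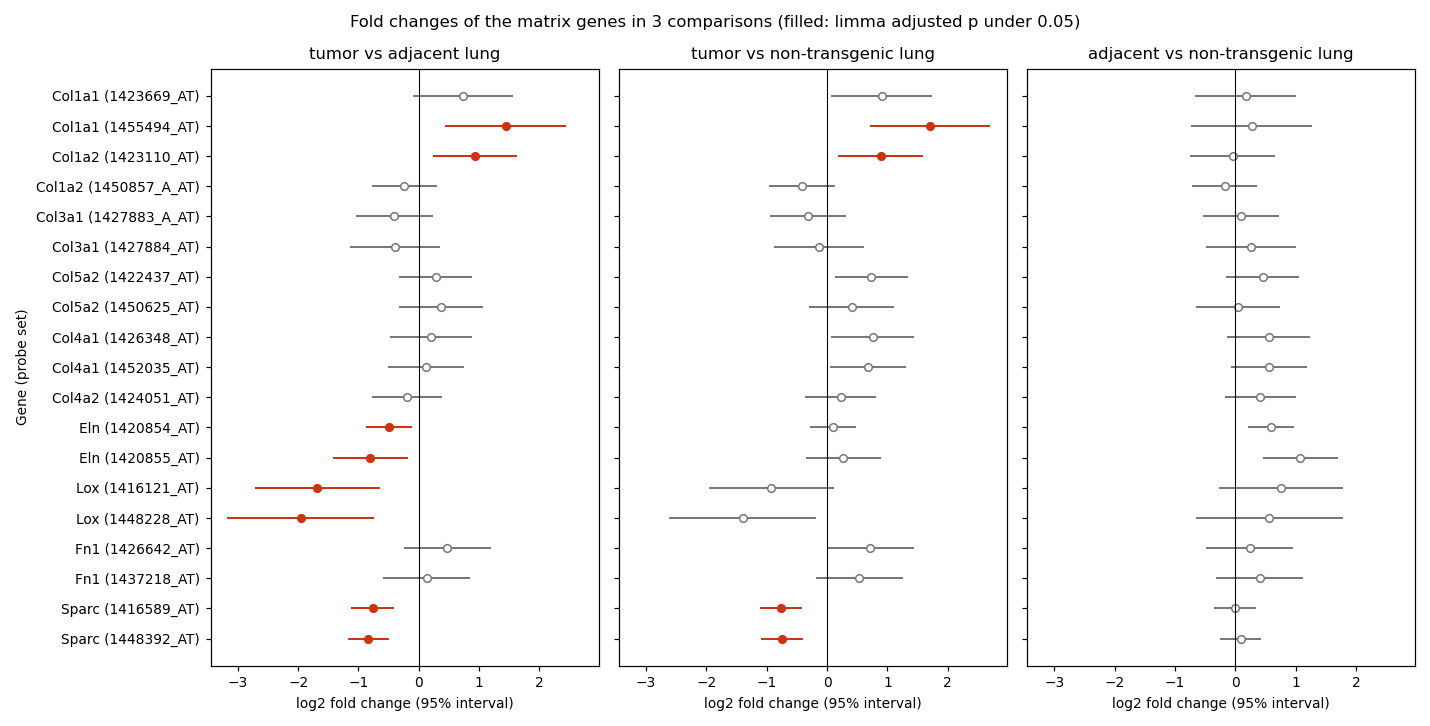
Log2 fold change of each of the 19 probe sets (horizontal axis, with 95% interval) in the 3 comparisons, one panel per comparison and one line per probe set, filled where limma's adjusted p was under 0.05. Tumor against adjacent lung has 8 filled points, tumor against non-transgenic lung 4 and adjacent against non-transgenic lung none, with the 2 Sparc points near -0.8 in both tumor panels.

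Sparc, the collagen-binding glycoprotein, was lower in every tumor than in every lung. Its probe set 1416589_AT read 11.62, 12.09, 11.84 and 12.11 in non-transgenic lungs 1 to 4, 11.98, 11.91, 11.66 and 12.07 in adjacent lungs 1 to 4, and 11.21, 10.88, 11.30 and 11.19 in tumors 1 to 4. The tumors lay below every lung of either kind, and the 2 kinds of lung overlapped. In tumors it fell by 0.763 on the log2 scale against adjacent lung (SE 0.154, limma adjusted p = 0.00402), which is 1.70-fold lower, and by 0.77 against non-transgenic lung (adjusted p = 0.00326). The other probe set, 1448392_AT, read 11.41, 11.93, 11.72 and 11.93 in non-transgenic lungs, 11.96, 11.79, 11.66 and 11.93 in adjacent lungs, and 11.10, 10.77, 11.14 and 11.00 in tumors. It showed the same separation and was 1.78-fold lower than in adjacent lung (log2 difference -0.835, SE 0.149, adjusted p = 0.00195) and 1.68-fold lower than in non-transgenic lung (adjusted p = 0.00321). Adjacent and non-transgenic lung differed by -0.01 and 0.09, with 95% intervals from -0.342 to 0.327 and from -0.235 to 0.413. These were the only 2 members whose tumors all lay below the adjacent lungs, as did 13% of all probe sets tested, and the only 2 below the non-transgenic lungs, as did 15.2%. Both calls in both comparisons remained when any 1 of the 12 arrays was left out, with log2 differences from adjacent lung of -0.85 to -0.67 and -0.89 to -0.76. With the replicate block both stayed called (adjusted p = 0.0417 and 0.0286). By the unequal-variance test the call of 1448392_AT against non-transgenic lung was lost (adjusted p = 0.051).

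Lox had the largest differences between tumor and adjacent lung among the members. Probe set 1416121_AT read 7.35, 7.59, 7.28 and 7.79 in non-transgenic lungs 1 to 4, 8.34, 9.41, 7.69 and 7.62 in adjacent lungs, and 6.22, 7.97, 5.75 and 6.39 in tumors. Tumors 1, 3 and 4 lay below every lung, while tumor 2 lay within the range of the adjacent lungs and above the non-transgenic ones. In tumors the signal fell by 1.68 against adjacent lung (SE 0.466, limma adjusted p = 0.0195), which is 3.21-fold lower. Probe set 1448228_AT read 7.36, 7.63, 7.37 and 7.84, then 8.17, 9.47, 7.49 and 7.33, then 5.92, 7.81, 5.09 and 5.79 in the same order. Tumors 1, 3 and 4 again lay below every lung, with tumor 2 inside the range of both kinds, and the signal fell by 1.96 (SE 0.551, adjusted p = 0.0206), which is 3.90-fold. Against non-transgenic lung the differences were -0.921 (SE 0.466, adjusted p = 0.15) and -1.40 (SE 0.551, adjusted p = 0.0708) and passed no threshold. Without tumor 2 they were -1.38 (adjusted p = 0.00825) and -1.95 (adjusted p = 0.00272) against non-transgenic lung, and -2.14 and -2.52 against adjacent lung. That fit called 46.8% and 45% of all probe sets tested in these comparisons. Both calls against adjacent lung were lost without adjacent lung 2, tumor 1, tumor 3 or tumor 4, with adjusted p up to 0.062 and 0.065, and also in the fit of only the 8 arrays compared (adjusted p = 0.061 and 0.064) and by the unequal-variance test (adjusted p = 0.16 for both). With the replicate block both held (adjusted p = 0.0136 and 0.0118). Adjacent lung 2, at 9.41 and 9.47, was the highest of all 12 arrays on both probe sets, and the adjacent lungs differed from non-transgenic lung by 0.76 and 0.565 (adjusted p = 1 for both).

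Elastin (Eln) had less signal in tumors than in adjacent lung, and the adjacent lungs lay above the non-transgenic ones without passing adjustment. Its probe set 1420855_AT read 6.75, 7.26, 7.02 and 7.39 in non-transgenic lungs 1 to 4, 8.07, 8.44, 7.91 and 8.32 in adjacent lungs, and 6.74, 8.25, 7.40 and 7.12 in tumors. All 4 adjacent lungs lay above all 4 non-transgenic lungs, and tumors 1, 3 and 4 lay below all adjacent lungs. Tumors had 1.75-fold less signal than adjacent lung (log2 difference -0.808, SE 0.278, limma adjusted p = 0.0471). Probe set 1420854_AT read 5.43, 5.19, 5.34 and 5.39 in non-transgenic lungs, 5.91, 6.19, 5.72 and 5.91 in adjacent lungs, and 5.52, 5.82, 5.38 and 5.02 in tumors. The arrays were separated in the same way, and tumors were 1.41-fold lower than adjacent lung (log2 difference -0.499, SE 0.168, adjusted p = 0.0436). Both adjusted values lay close to the threshold. The calls remained in 2 of 12 fits with 1 array left out, those without tumor 2 and without adjacent lung 3, and in the other 10 adjusted p rose to at most 0.12 and 0.13. With the replicate block adjusted p was 0.0999 for 1420854_AT and 0.0778 for 1420855_AT. Both calls were also lost with no filter, with median centring, with only the 8 arrays compared and by the unequal-variance test (adjusted p up to 0.17 and 0.22), and that of 1420854_AT with quantile normalization.

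In adjacent against non-transgenic lung, Eln was 2.11-fold higher by 1420855_AT (log2 difference 1.08, SE 0.278, limma unadjusted p = 0.00219) and 1.51-fold higher by 1420854_AT (0.595, SE 0.168, unadjusted p = 0.0041), and neither passed adjustment over all probe sets (adjusted p = 1 for both). They were the only 2 members whose groups did not overlap in this comparison, against 2.54% of all probe sets with every adjacent lung above and 2.24% with every one below. They were also the only 2 members with a limma unadjusted p under 0.05, which 3.55% of all probe sets had. The unequal-variance test gave 3 members at that level, against 5.54% of all probe sets, and none after adjustment. Tumors and non-transgenic lungs overlapped on Eln, with differences of 0.096 (95% interval -0.271 to 0.463) and 0.271 (-0.335 to 0.876).

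**Figure D2:**
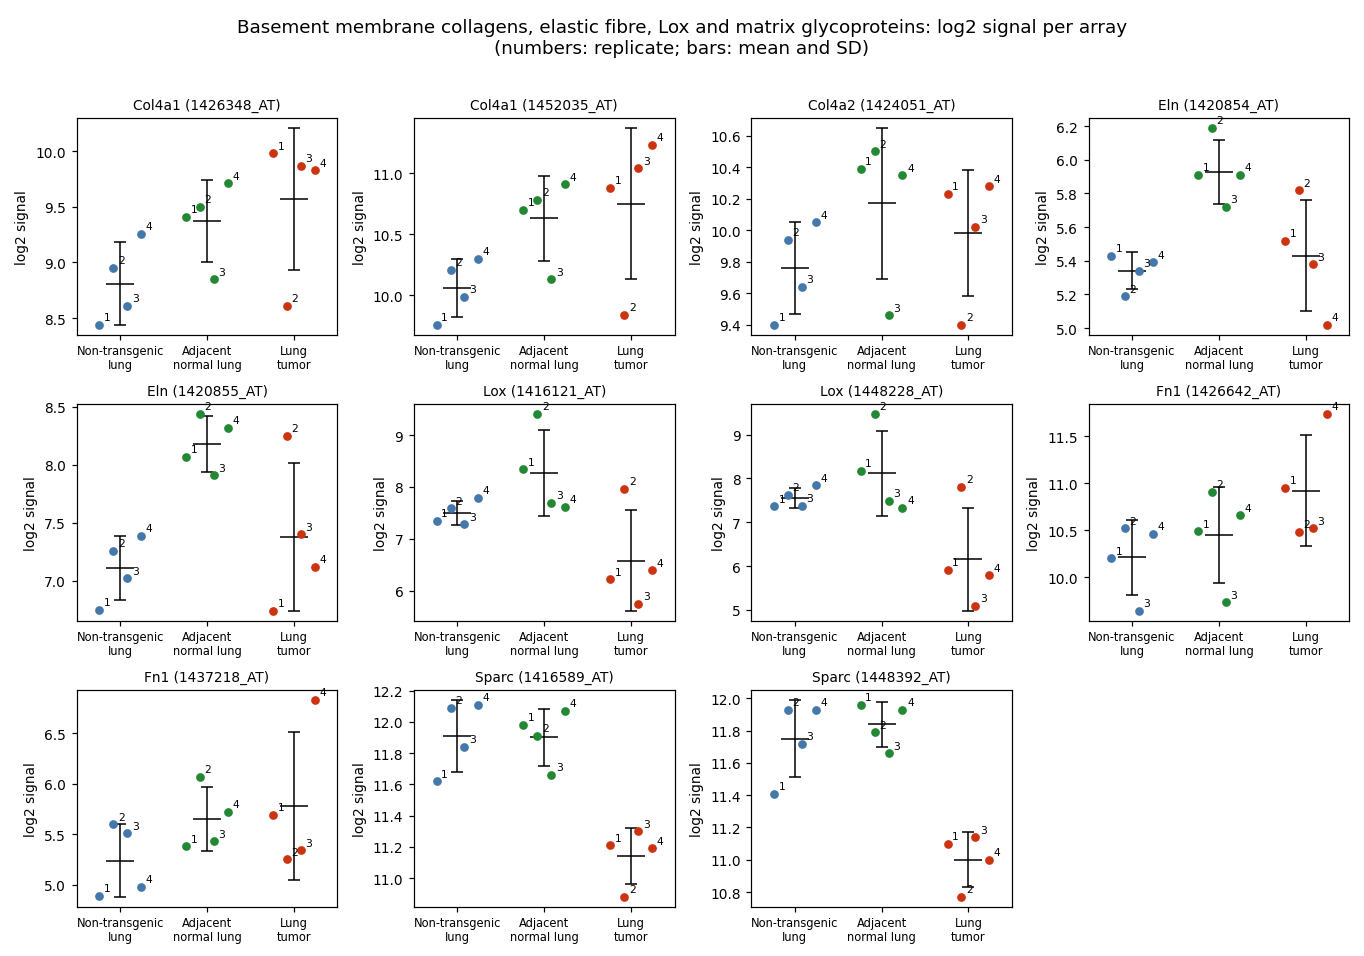
Log2 signal (vertical axis, own scale in each panel) of the 11 probe sets of Col4a1, Col4a2, Eln, Lox, Fn1 and Sparc in the lungs of mice with no transgene, adjacent lungs and tumors, with points numbered by replicate and bars for mean and SD. Tumors lie below all lungs on both Sparc panels, adjacent lungs above all non-transgenic lungs on both Eln panels, and tumor 2 is the highest tumor on the 4 Eln and Lox panels.

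Type I collagen rose in tumors by 1 probe set for each chain, and the other probe set of each gave no call. Without a call, the other probe set of Col1a1 differed in the same direction and that of Col1a2 in the opposite direction. Probe set 1455494_AT of Col1a1 read 4.96, 4.89, 4.48 and 5.02 in non-transgenic lungs 1 to 4, 4.48, 5.41, 5.14 and 5.41 in adjacent lungs, and 6.57, 5.11, 6.59 and 7.91 in tumors. Every tumor lay above every non-transgenic lung, and tumors 1, 3 and 4 above every adjacent lung. The rise was 3.27-fold against non-transgenic lung (log2 difference 1.71, SE 0.452, limma adjusted p = 0.0138) and 2.71-fold against adjacent lung (1.44, SE 0.452, adjusted p = 0.0331). Against non-transgenic lung the call remained in all 12 fits with 1 array left out and was lost by the unequal-variance test (adjusted p = 0.15). Against adjacent lung it was lost without adjacent lung 1, 2 or 3 or tumor 1, 3 or 4, with adjusted p up to 0.095, with the replicate block (0.0927), with only the 8 arrays compared (0.086) and by the unequal-variance test (0.22). Under the stricter filter this probe set was not among those tested. Probe set 1423669_AT of the same gene read 7.63, 7.57, 7.64 and 8.15, then 7.46, 7.71, 8.05 and 8.45, then 8.91, 7.64, 8.32 and 9.73. Tumor 2 lay among the lungs, and the differences of 0.733 from adjacent lung (SE 0.374, adjusted p = 0.16) and 0.904 from non-transgenic lung (adjusted p = 0.0831) passed no threshold. Without tumor 2 they were 1.07 (adjusted p = 0.0159) and 1.24 (adjusted p = 0.00689), in a fit that called 45% and 46.8% of all probe sets tested.

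For Col1a2, probe set 1423110_AT read 6.71, 6.87, 6.66 and 6.89 in non-transgenic lungs 1 to 4, 6.72, 6.68, 6.47 and 7.09 in adjacent lungs, and 7.80, 6.97, 7.17 and 8.77 in tumors. The tumors lay above all non-transgenic lungs, and tumor 2 lay below adjacent lung 4. The rise was 1.91-fold against adjacent lung (log2 difference 0.936, SE 0.317, limma adjusted p = 0.044) and 1.86-fold against non-transgenic lung (0.892, SE 0.317, adjusted p = 0.0483). These calls remained in 3 and 2 of 12 fits with 1 array left out, with adjusted p up to 0.096 and 0.10 in the others, and with the replicate block adjusted p was 0.0635. Both were lost with no filter, with only the 8 arrays compared and by the unequal-variance test (adjusted p up to 0.24 and 0.23). Probe set 1450857_A_AT of Col1a2 read 10.13, 10.25, 10.12 and 10.53, then 9.98, 9.80, 9.97 and 10.59, then 9.87, 9.75, 9.29 and 10.47. Here the tumors overlapped both kinds of lung, at -0.239 from adjacent lung (95% interval -0.765 to 0.287, adjusted p = 0.479) and -0.414 from non-transgenic lung (-0.94 to 0.112, adjusted p = 0.21). The first probe set moved against the second by 1.17 in tumors relative to adjacent lung and by 1.31 relative to non-transgenic lung (two-sided exact permutation test, p = 0.0286 for both, the smallest that 4 arrays against 4 allow). After adjustment over the 18 such tests made in 9 genes, p was 0.129. The direction given for Col1a2 therefore holds for 1 of its 2 probe sets, and the places they read in the transcript were not used here. For Col1a1 the corresponding differences were -0.70 (exact permutation p = 0.0857, adjusted p = 0.257) and -0.81 (p = 0.0286, adjusted p = 0.129).

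Col1a2, called higher in tumors by 1 of its 2 probe sets, and Sparc, called lower by both, had a promoter window in the RefSeq table (build GRCm38.p6), as did Col3a1, Col4a1 and Col4a2, so 5 of the 10 genes matched. The 250 bases before the start are given for both, 5′ to 3′ on the gene's strand, at chr6:4505368-4505617 on the plus strand for Col1a2 and chr11:55420081-55420330 on the minus strand for Sparc. Capitals mark the motifs searched for on both strands, which were the CCAAT box, the GC box with the letters GGGCGG, and the TATA box with the letters TATAAA.
Col1a2: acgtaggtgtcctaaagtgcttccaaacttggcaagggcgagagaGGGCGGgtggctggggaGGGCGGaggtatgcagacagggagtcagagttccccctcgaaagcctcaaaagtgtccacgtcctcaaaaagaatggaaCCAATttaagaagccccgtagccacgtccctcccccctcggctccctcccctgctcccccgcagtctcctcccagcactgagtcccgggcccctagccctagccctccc
Sparc: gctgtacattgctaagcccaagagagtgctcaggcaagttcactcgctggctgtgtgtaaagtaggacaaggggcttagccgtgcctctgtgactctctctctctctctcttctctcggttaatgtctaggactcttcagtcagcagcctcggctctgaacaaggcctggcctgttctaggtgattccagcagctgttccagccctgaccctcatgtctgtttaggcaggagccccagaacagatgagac
The Col1a2 window held GGGCGG at 2 places and CCAAT at 1, with no overlap between them, and the Sparc window held none of the 3 motifs. Of the members with no call, Col4a2 held CCAAT at 1 place and GGGCGG at 2 (1 on each strand), Col4a1 held CCAAT at 1 and Col3a1 held TATAAA at 1. On either strand, CCAAT was found in 33.8% of the 32851 windows of this length, GGGCGG in 32.7% and TATAAA in 12.4%. These matches describe letters in the window and not bound sites.

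Col3a1 and Col5a2, whose chains enter the same fibrils as type I collagen, had no call in any comparison. The Col3a1 probe set 1427883_A_AT was 10.32, 10.16, 10.19 and 10.21 in non-transgenic lungs 1 to 4, 9.75, 10.42, 10.36 and 10.73 in adjacent lungs, and 9.55, 10.18, 9.24 and 10.66 in tumors. The non-transgenic lungs spanned a narrow range inside that of the tumors. The difference of tumors from adjacent lung was -0.407 (95% interval -1.03 to 0.212, limma adjusted p = 0.299), and by 1427884_AT, which ran from 5.09 to 6.40 in tumors, 5.21 to 6.68 in adjacent lungs and 5.60 to 5.65 in non-transgenic lungs, it was -0.396 (-1.12 to 0.332, adjusted p = 0.392). For Col5a2, 1422437_AT read 7.31, 7.38, 7.42 and 7.55, then 7.42, 8.12, 7.75 and 8.18, then 8.35, 7.68, 7.65 and 8.93. All tumors lay above all non-transgenic lungs, at 0.736 (SE 0.27, adjusted p = 0.0543), and the adjacent lungs overlapped both. With each array centred on its median this difference was called. Without tumor 2 it was 0.89 (limma adjusted p = 0.0164), in a fit that called 46.8% of all probe sets tested. Col5a2 was also called higher than in non-transgenic lung without tumor 3, in a fit that called 22.8%. The other Col5a2 probe set, 1450625_AT, ran from 5.97 to 7.21 in tumors, 5.43 to 6.83 in adjacent lungs and 5.79 to 6.09 in non-transgenic lungs, with differences of 0.369 and 0.407 (adjusted p = 0.394 and 0.344). With these, 3 members had every tumor above every non-transgenic lung (1455494_AT of Col1a1, 1423110_AT of Col1a2 and 1422437_AT of Col5a2), as had 13.3% of all probe sets, and no member had every tumor above every adjacent lung, as 10.4% had. Col3a1 and Col5a2 neighbour each other, with 0 genes listed between them by RefSeq.

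**Figure D3:**
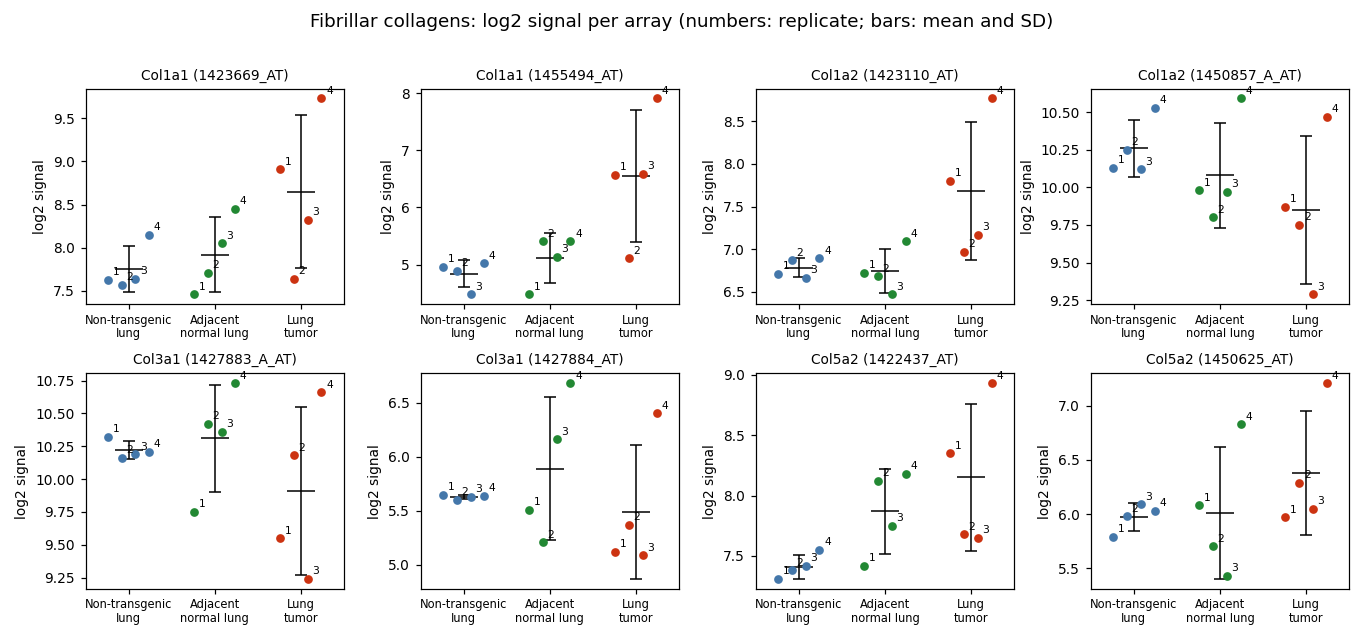
Log2 signal (vertical axis, own scale in each panel) of the 8 fibrillar collagen probe sets in the lungs of mice with no transgene, adjacent lungs and tumors, with points numbered by replicate and bars for mean and SD. The tumors spread more widely than the non-transgenic lungs in every panel, and tumor 4 and adjacent lung 4 are the highest of their groups in all 8.

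The basement membrane collagens had no call, and the 2 arrays that stood apart were the lowest of their groups on all 3 probe sets. Col4a1 by 1452035_AT read 9.76, 10.21, 9.99 and 10.30 in non-transgenic lungs 1 to 4, 10.70, 10.78, 10.13 and 10.91 in adjacent lungs, and 10.88, 9.84, 11.04 and 11.23 in tumors. Adjacent lungs 1, 2 and 4 and tumors 1, 3 and 4 lay above all non-transgenic lungs, while adjacent lung 3 and tumor 2 lay among them. The same held for 1426348_AT, at 8.44, 8.95, 8.61 and 9.26, then 9.41, 9.50, 8.85 and 9.71, then 9.98, 8.61, 9.87 and 9.83. Tumors differed from non-transgenic lung by 0.683 and 0.757 (limma adjusted p = 0.0831 and 0.0779) and from adjacent lung by 0.119 and 0.201 (adjusted p = 0.778 and 0.652). Without tumor 2, Col4a1 was called higher than in non-transgenic lung by both probe sets, at 0.99 (adjusted p = 0.00164) and 1.08 (adjusted p = 0.00206). That fit called 46.8% of all probe sets tested. Leaving out tumor 1, 3 or 4 gave no call of a basement membrane collagen. Col4a2, by 1424051_AT, read 9.40, 9.94, 9.64 and 10.05, then 10.39, 10.50, 9.46 and 10.35, then 10.23, 9.40, 10.02 and 10.28. Its tumors differed by -0.192 from adjacent lung (95% interval -0.761 to 0.377) and by 0.225 from non-transgenic lung (-0.344 to 0.795). Without tumor 2 the latter was 0.42 (limma adjusted p = 0.178). Without both tumor 2 and adjacent lung 3, all 3 basement membrane probe sets were called higher than in non-transgenic lung. That fit called 52.3% of all probe sets tested in this comparison.

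Since Col1a1 with Col1a2, and Col4a1 with Col4a2, supply chains of the same trimers, the log2 signal of the first gene minus that of the second was followed in each array, as a mean over the probe sets of each gene. Relative to the mean of non-transgenic lung, Col1a1 minus Col1a2 was 1.13, 0.25, 1.46 and 1.43 in tumors 1 to 4 and -0.15, 0.55, 0.60 and 0.32 in adjacent lungs, with non-transgenic lungs within 0.10 of their mean. All tumors lay above the non-transgenic lungs, and tumor 2 lay among the adjacent lungs. The change was 1.07 against non-transgenic lung (two-sided exact permutation test, p = 0.0286, adjusted p over 4 tests = 0.0571) and 0.74 against adjacent lung (p = 0.114, adjusted p = 0.114). It carries the disagreement of the probe sets of Col1a2 described for that gene. Against non-transgenic lung, Col1a1 moved by 0.904 (1423669_AT) and 1.71 (1455494_AT), and Col1a2 by 0.892 (1423110_AT) and -0.414 (1450857_A_AT). Against adjacent lung these values were 0.733, 1.44, 0.936 and -0.239. By 1423669_AT and 1423110_AT alone, Col1a1 therefore rose about as much as Col1a2 against non-transgenic lung. Against adjacent lung this pair moved by 0.733 (SE 0.374) and 0.936 (SE 0.317), and the gap between them was not tested. In every other pairing of their probe sets, the change of Col1a1 was higher than that of Col1a2 in both comparisons. Col4a1 minus Col4a2 was 0.52, 0.14, 0.75 and 0.57 in tumors and -0.02, -0.03, 0.34 and 0.28 in adjacent lungs, with non-transgenic lungs between -0.04 and 0.05. The order of the groups was the same, with a change of 0.49 against non-transgenic lung (exact permutation p = 0.0286, adjusted p = 0.0571) and 0.35 against adjacent lung (p = 0.0857, adjusted p = 0.114). None of the 4 tests passed adjustment. Without tumor 2, the lowest tumor on both differences, the remaining tumors lay above all lungs, which fixes each of the 4 tests at the smallest p that 3 arrays against 4 allow (adjusted exact permutation p = 0.029). The changes were then 1.34 and 1.01 for the type I chains and 0.61 and 0.47 for the type IV chains against non-transgenic and adjacent lung. The type IV genes are transcribed away from each other. In the RefSeq windows Col4a1 starts on the minus strand at base 11312826 of chromosome 8 and Col4a2 on the plus strand at base 11312805, so 22 bases lie in both transcripts.

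**Figure D4:**
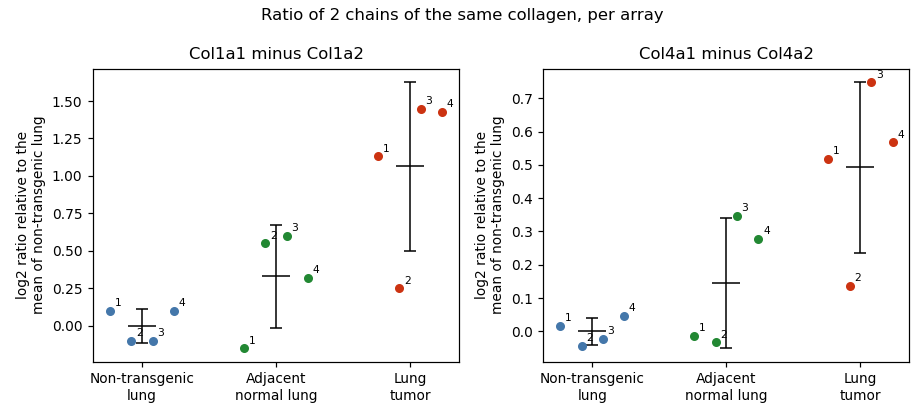
Log2 signal of Col1a1 minus Col1a2 (left) and Col4a1 minus Col4a2 (right) per array, relative to the mean of the 4 non-transgenic lungs (vertical axis), with points numbered by replicate and bars for mean and SD. On both panels all tumors lie above all non-transgenic lungs, with tumor 2 the lowest tumor at 0.25 and 0.14.

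Fibronectin had no call in the fit of all 12 arrays. Fn1 by 1426642_AT read 10.20, 10.52, 9.64 and 10.46 in non-transgenic lungs 1 to 4, 10.49, 10.91, 9.73 and 10.66 in adjacent lungs, and 10.95, 10.48, 10.52 and 11.74 in tumors, and the groups overlapped. Tumors differed by 0.471 from adjacent lung (95% interval -0.234 to 1.18, limma adjusted p = 0.291) and by 0.714 from non-transgenic lung (0.009 to 1.42, adjusted p = 0.111). By 1437218_AT, which ran from 5.25 to 6.83 in tumors, 5.38 to 6.07 in adjacent lungs and 4.89 to 5.60 in non-transgenic lungs, the differences were 0.129 and 0.535 (adjusted p = 0.787 and 0.225). Without both tumor 2 and adjacent lung 3, 1 Fn1 probe set was called higher than in non-transgenic lung. That fit called 52.3% of all probe sets tested in this comparison. Tumor 4 was the highest of the 12 arrays on both Fn1 probe sets.

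The tumors differed among themselves by gene class. Tumor 4 was the highest tumor on 12 of the 19 probe sets, among them all 8 of the fibrillar collagens. Tumor 2 was the lowest tumor on 10 of 19, among them all 3 of the basement membrane and all 4 of Fn1 and Sparc, and the highest on all 4 of Eln and Lox. It was also the tumor closest to the non-transgenic mean on 11 of 19 and lay inside the non-transgenic range on 8, against 1 to 5 for the other tumors. On Sparc it lay farthest from the lungs, at 10.88 and 10.77. The 2 probe sets of a gene are not separate measurements of the tissue, so these counts describe 10 genes at most. Tumor 2 also stood apart over all probe sets tested, at a mean distance of 153.9 from the other tumors, against 96.7 to 102.9. The same counts were not taken over all probe sets, so whether they are particular to the matrix genes was not tested.

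**Figure D5:**
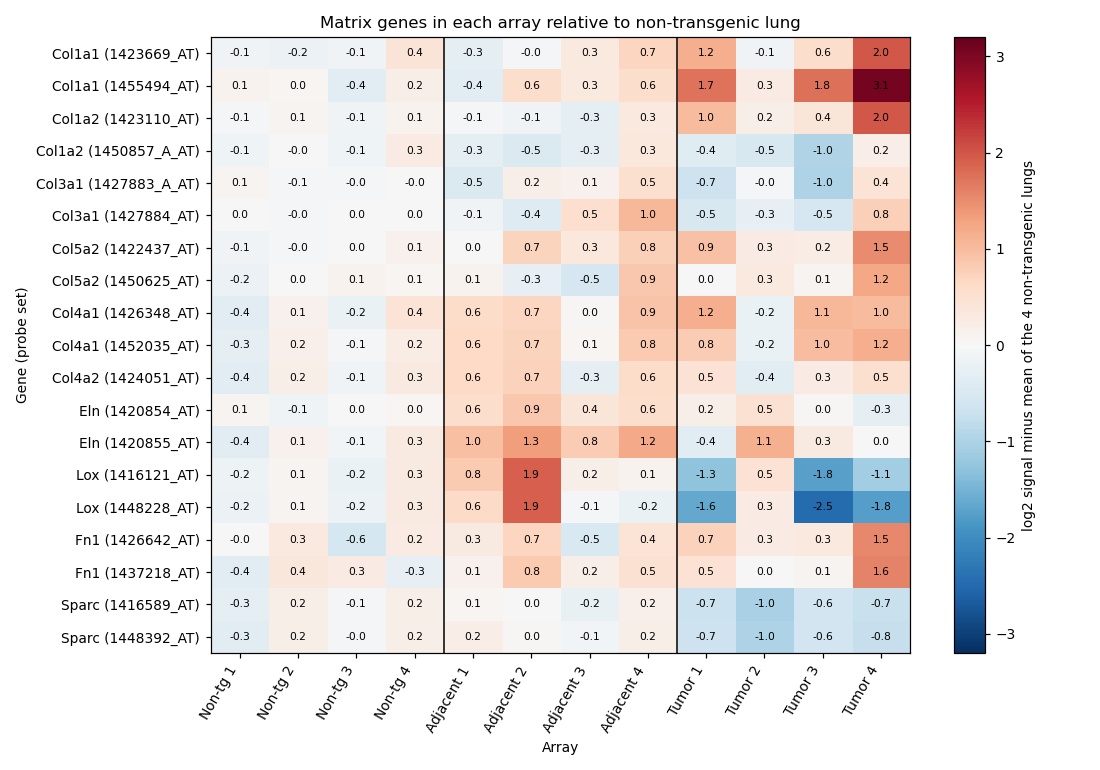
Log2 signal of each probe set (rows) in each of the 12 arrays (columns) minus its mean in the 4 non-transgenic lungs, printed in each cell, with red above and blue below that mean and lines between the groups. Tumor 4 carries the highest fibrillar values, up to 3.1 for Col1a1, tumors 1, 3 and 4 the lowest Lox values and all 4 tumors the low Sparc values.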

How the data were processed

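Total RNA of 12 lung samples was hybridized to Affymetrix mouse arrays. The deposited table held log2 signals (1.50 to 14.51, array medians 4.10 to 4.38) that the authors had background corrected and normalized. Their methods name RMA and the submitters' processing notes GCRMA, and which was used is not settled. From these values limma 3.58.1 (R 4.3.3; lmFit, eBayes) was fitted over the 3 groups without a block, with Benjamini-Hochberg adjustment over 23538 probe sets (64 controls left out), and checked on simulated data. Chains and probe sets were compared with two-sided exact permutation tests over 70 splits. The design text gives 4 transgenic mice for the 8 transgenic arrays, so that tumor and adjacent lung of a number may share a mouse, whereas the methods state independent samples. The limma fit and the exact tests used no pairing. Deviations from group means correlated by -0.03, 0.10, 0.07 and 0.11 in pairs 1 to 4. No 2 arrays held the same values (highest correlation 0.9935). The p-values rest on the spread between these samples, taken as independent, and not on a spread between mice known to be separate. All members are reported. The rule for members uses no measured value, but it, the lists and the tests were drawn up with earlier results of these data known. Alternatives covered the filter (none, or the 75th percentile at 6.47), quantile normalization, median centring, a floor (2.81), left-out arrays, a trend and robust fit, 8 arrays, the replicate block (fixed or random), the unequal-variance test and analysis of variance. For the chain differences they also covered the brightest probe set of each gene. Removal of tumor 2 and adjacent lung 3 together, and the tests between probe sets of a gene, were added after seeing the data.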

Additional observations from a re-analysis of the deposited data

Results flagged for a closer look

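In 3 of the 57 sets of 4 arrays (19 probe sets in 3 groups), a single array lay far from the other 3 by Dixon's criterion, and chance alone marks about 1 set in 20. By 1426348_AT, Col4a1 was 8.61 in tumor 2, against 9.83 to 9.98 in the other tumors. By 1424051_AT, Col4a2 was 9.46 in adjacent lung 3, against 10.35 to 10.50 in the other adjacent lungs. These are the 2 arrays that stood apart over all probe sets. By 1423669_AT, Col1a1 was 8.15 in non-transgenic lung 4, against 7.57 to 7.64 in the others, with no such gap by its other probe set. The causes were not tested.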

How the results depend on the processing

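With 4 arrays a group, calls near the threshold moved with the settings. The 8 members called between tumor and adjacent lung (28.7% of all probe sets) became 5 with no filter (15.6%), 4 with the replicate block as a fixed term (Lox and Sparc, 13.9%), 2 with only the 8 arrays compared (18.4%), 2 by the unequal-variance test (Sparc, 2.51%) and 2 to 9 with 1 array left out (19% to 45%). The 4 called between tumor and non-transgenic lung (32.5%) became 3 to 10 with 1 array left out (22.8% to 46.8%), 10 without tumor 2 (46.8%), 12 without tumor 2 and adjacent lung 3 (52.3%), and 1 by the unequal-variance test (6.33%). The 7 by the moderated F-test (28.6%) became 2 to 12 with 1 array left out (17.6% to 44.2%), 13 without both arrays (48.9%), and 3 by the methods' analysis of variance after adjustment (24.4%), with 8 before it (39.7%). The percentages are the shares of all probe sets called in the same fit, which moved with these settings too. With the mouse as a random block the member counts were 8, 4, 0 and 7, as without it. The shares of all probe sets called in that fit were 30.5%, 32.5%, 0% and 29.9%. The chain differences with 1 array left out ran from 0.58 to 1.01 (Col1a1 minus Col1a2) and 0.27 to 0.47 (Col4a1 minus Col4a2) against adjacent lung and from 0.94 to 1.34 and 0.41 to 0.61 against non-transgenic lung. With sign flips within replicate numbers, a paired test, no p under 0.125 was possible. Median centring moved the median of all probe sets from 0.07 to 0.18 against adjacent lung and to 0.14 against non-transgenic lung. Of 1258 member values under alternatives, 1159 kept their side of the threshold, 80 lost a call, 19 gained one and none reversed with a call, while 23 uncalled values of at most 0.24 turned sign. The causes were not tested.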

Other observations

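The same replicate numbers stood highest in tumors and in adjacent lung for 2 gene classes. On all 8 fibrillar collagen probe sets number 4 was the highest of the adjacent lungs and the highest of the tumors. By 1455494_AT of Col1a1 adjacent lungs 2 and 4 were equal to 2 decimals, at 5.41. On all 4 probe sets of Eln and Lox number 2 was the highest in both groups, at 8.44 and 8.25 for Eln by 1420855_AT and at 9.41 and 7.97 for Lox by 1416121_AT in adjacent lung and tumor. In the basement membrane and glycoprotein classes no number was the highest on all probe sets of either group. Over all probe sets tested, deviations from group means correlated by -0.03, 0.10, 0.07 and 0.11 between tumor and adjacent lung of numbers 1 to 4. The 8 fibrillar probe sets read 4 genes and the 4 of Eln and Lox read 2, and no test was made of this pattern.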
